A study of Mus musculus with 2 samples.

Results

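The cells described here were spinal cord microglia-lineage cells, 5 days after a lysolecithin injury, in which messenger RNAs of the interferon response were abundant. They were chosen by measured values: a cell of the injured library was counted as interferon-high when it held 3 or more unique molecular identifiers (UMIs, each standing for 1 captured transcript) summed over Ifit1, Ifit2, Ifit3, Ifit3b, Rsad2, Usp18, Cmpk2 and Isg15. By this rule 115 of the 577 injured cells that were kept were interferon-high, of 1272 kept cells in both libraries together. A further 195 injured cells held 1 or 2 UMIs of the 8 genes, and 267 held 0; the 267 cells were the reference for every ratio below. Because membership was decided by the same cells' counts, the contrast between the 115 and the 267 cells is a description, and no test was made of it.

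The study had sequenced single cells of the spinal cord from mice of the C57BL/6J background that carried Cx3cr1-CreER::Rosa26-tdTomato, in which cells with an active Cx3cr1 gene (the receptor of fractalkine) are permanently marked by tdTomato once 4-hydroxytamoxifen is given. Each group was 1 library: an injured one, taken on day 5 after lysolecithin, a lipid that dissolves myelin membranes, and an uninjured one from age-matched mice. In both groups 4-hydroxytamoxifen was injected 2 times (1 mg) in postnatal week 4, and after another 4 weeks the cords were dissociated with collagenase at 37 °C and tdTomato-positive cells sorted. The labels do not say how many animals went into a library, and the Cx3cr1 promoter also marks macrophages other than microglia.

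Type I interferons (the interferon alphas and interferon beta) bind a receptor made of Ifnar1 and Ifnar2, and the kinases Jak1 and Tyk2 then activate transcription factors, which join Irf9 and enter the nucleus. This complex binds the interferon-stimulated response element, a pair of GAAA repeats, in front of many genes that restrict viruses, sense foreign nucleic acid, present antigen and recruit leukocytes. A small share of microglia with this programme has been described in ageing, in development and after demyelination.

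The 8 selecting genes are classical targets of this pathway. Ifit1, Ifit2, Ifit3 and Ifit3b encode proteins with tetratricopeptide repeats that bind foreign RNA, and they lie together on chromosome 19 (GRCm38, GENCODE vM21). Ifit2 spans 34550694 to 34576419, Ifit3 34583531 to 34588731, Ifit3b 34607970 to 34613401 and Ifit1 34640871 to 34650009, all on the plus strand. Rsad2 (viperin, which makes an antiviral nucleotide) occupies chr12:26442746-26456452 on the minus strand, beside Cmpk2, a mitochondrial nucleotide kinase, at chr12:26469204-26479837 on the plus strand. Usp18, a protease that removes Isg15 from proteins and restrains the receptor, lies at chr6:121245906-121270917, and Isg15, a ubiquitin-like modifier, at chr4:156199424-156200818.

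The response element could be read in the promoters of most of these genes. The search used the letters gaaanngaaa and their reverse complement tttcnntttc, so on both strands, in windows from 250 bases before to 50 bases after each start in the RefSeq table for GRCm38.p6, and overlapping matches were all counted. A match was present for 5 of the 7 selecting genes found in that table (71.4%), against 1079 of all 27025 genes in it (3.99%). The stretches that hold the matches of 5 selecting genes, and that of Irgm1, an immunity-related GTPase described below, are shown because they display the repeat that these genes have in common. Each is written 5′ to 3′ on the strand of its gene, with the matches in capitals.
Ifit1 (chr19:34640770-34640828, plus strand): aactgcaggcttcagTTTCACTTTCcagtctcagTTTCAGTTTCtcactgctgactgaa
Ifit3 (chr19:34583358-34583431, plus strand): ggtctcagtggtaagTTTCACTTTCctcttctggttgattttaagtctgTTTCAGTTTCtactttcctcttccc
Ifit3b (chr19:34607754-34607827, plus strand): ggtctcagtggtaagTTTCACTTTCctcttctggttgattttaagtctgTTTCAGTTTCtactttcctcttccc
Rsad2 (chr12:26456548-26456587, minus strand): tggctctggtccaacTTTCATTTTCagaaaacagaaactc
Isg15 (chr4:156200860-156200911, minus strand): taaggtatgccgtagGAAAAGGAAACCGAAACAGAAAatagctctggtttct
Irgm1 (chr11:48871421-48871465, minus strand): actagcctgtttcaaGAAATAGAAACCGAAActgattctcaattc

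Ifit1, Ifit3 and Ifit3b each held 2 matches, and the stretches printed for Ifit3 and Ifit3b have the same letters over all 74 bases. In Isg15, 3 matches overlapped in 1 run of repeats, and in Irgm1 2 did. Ifit2 and Cmpk2 held no match in the window, which says only that these letters are not there. Beyond the selecting genes, the match was present in 16 of the 43 other interferon-induced genes that were measured and in the table (37.2%) and in 6 of 7 guanylate-binding and immunity-related GTPases. It was present in none of 16 homeostatic microglia genes. Of the measured genes that were at least 2-fold higher in the interferon-high cells 42 of 157 in the table had it (26.8%), and of the other measured genes 177 of 4895 (3.62%).

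The libraries differed in depth, with a median of 4396 UMIs per injured cell and 3003 per uninjured cell. They had no barcode in common, and the limits of at least 200 genes and at most 10% mitochondrial UMIs removed 3 injured and 10 uninjured barcodes. Interferon-high cells were deeper than their reference: a median of 5402 UMIs (range 1580 to 18223) and 1689 genes, against 3952 UMIs (range 1023 to 16772) and 1485 genes. A deeper cell reaches 3 UMIs more easily, so comparisons were repeated with each cell thinned to 2000 UMIs. Intervals given below are 95% and cover counting error alone. Each group was 1 library, so no value has a check between animals, and doublets were treated only by the scatter gates of the sort.

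Interferon-high cells made up 19.9% of injured cells (95% Clopper-Pearson interval 16.7 to 23.4). In the uninjured library 17 of 695 cells met the same rule, 2.45% (1.43 to 3.89). With every cell thinned to 2000 UMIs before counting, the shares were 68 of 546 injured cells (12.5%, 9.80 to 15.5; 31 shallower cells left out) and 8 of 539 uninjured cells (1.48%, 0.643 to 2.90; 156 left out). At 3000 UMIs the values were 15.9% and 3.45%. The injured library had the larger share at each depth. With 1 library of each kind the difference between the conditions was not tested. The libraries also differed in their sex-linked transcripts, as given below.

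Membership was a range with no gap in it. At the threshold, 59 injured cells held 2 UMIs of the 8 genes, 23 held 3 and 20 held 4. Among the members the sum was 3 in the lowest cell, 7 in the median cell and 138 in the highest, and the 10 highest cells held 1090 of the members' 2372 UMIs (46.0%). The members held 90.3% of all 2626 UMIs of these genes in the injured library. In the uninjured library the highest cell had 13. Sums of 3 to 5 were found in 53 injured cells, 6 to 20 in 33, and 21 or more in 29, against 13, 4 and 0 uninjured cells.

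**Figure D1:**
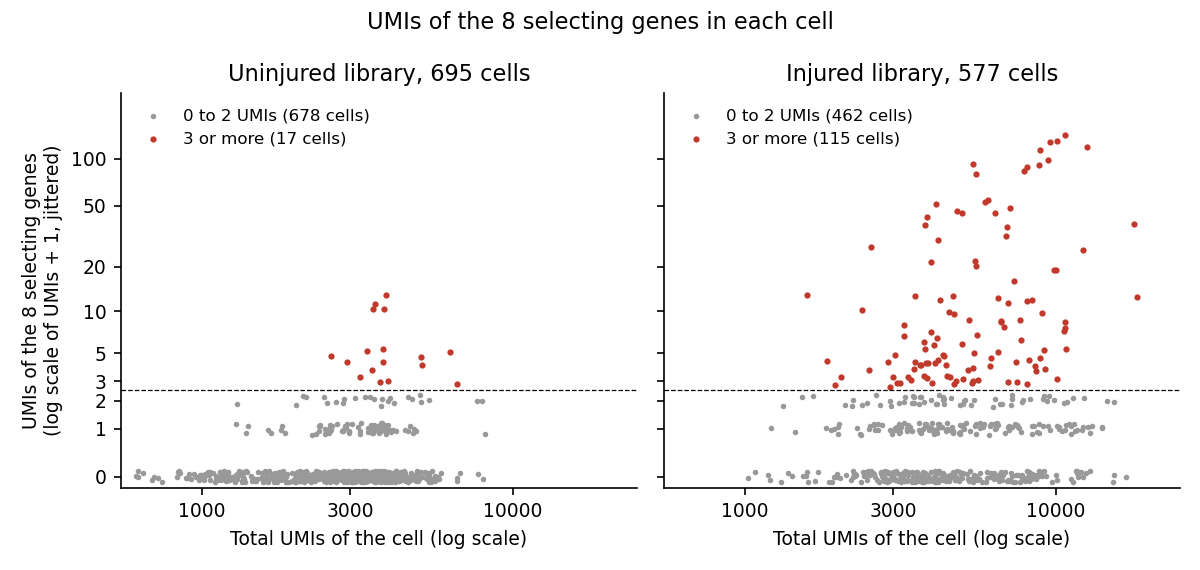
Each point is 1 kept cell, placed by its total UMIs and by its UMIs of the 8 selecting genes (both axes logarithmic, with small vertical jitter), in the uninjured library at the left and the injured library at the right; cells above the dashed line, with 3 UMIs or more, are red. The 115 injured cells above the line reach 138 UMIs, while the 17 uninjured cells above it stay at or below 13.

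The selecting genes differed in how widely they were seen among the members. Isg15 was the most abundant and the most widespread, with 612 UMIs, at least 1 of them in 109 of 115 members (94.8%), a median of 3 per member and a highest value of 30. Ifit3 followed with 501 UMIs in 69 members and up to 47 in 1 cell. Usp18 gave 295 UMIs in 76 members. Isg15 and Usp18 were also the least restricted to the members, which held 84.2% and 81.9% of their UMIs in the injured library.

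The other 5 genes were seen in fewer than 60 members each. Rsad2 had 264 UMIs in 44 members, with 68.2% of them in the 10 cells richest in it. Ifit1 was seen in 56 members (217 UMIs), Ifit3b in 52 (214 UMIs), Ifit2 in 51 (163 UMIs) and Cmpk2 in 33 (106 UMIs). Ifit3 and Ifit3b are near-identical copies, so the split of reads between them is uncertain. In the uninjured library Isg15 had 121 UMIs and Rsad2 and Cmpk2 4 and 3.

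The number of different selecting genes seen in a member ran from 1 to 8. In 13 members all UMIs came from a single gene, and 18 members had all 8. Isg15 supplied 54.3% of the selecting UMIs in cells with sums of 3 to 5, 34.8% in cells with 6 to 20, and 21.1% in cells with 21 or more. Rsad2 was seen in 5.66%, 42.4% and 93.1% of the cells of the 3 ranges, whose median depths were 4414, 6521 and 6349 UMIs. Since the ranges are cut on the sum of these genes, their detection has to be higher in the higher ranges, and nothing is read from it.

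All 115 interferon-high cells carried transcripts of at least 3 of 8 microglia markers. Fcrls was seen in 112 members, Tmem119 in 103 (89.6%) and P2ry12 in 99 (86.1%), and the median member held 3 UMIs each of Tmem119 and P2ry12. Of 8 markers of border-associated macrophages, Mrc1, Cd163, Lyve1 and F13a1 were at 0 UMIs in the members, and the list summed to 131 against 188 CPM (UMIs of a gene or list scaled to a common total of UMIs) in the reference cells. Of 7 monocyte markers, Ly6c2, Chil3 and Hp were at 0, Ccr2 had 1 UMI and Plac8 had 5 in 4 members against 3 in 3 reference cells, with a sum of 10.1 CPM against 20.7 CPM. T and natural killer cell markers gave 1 UMI in all and B cell markers 8, in 7 members (11.5 against 13.8 CPM). Of 4 markers of plasmacytoid dendritic cells Ccr9 and Klk1 were at 0, Tcf4 was seen in 45.2% of members against 31.5% of reference cells and Cox6a2 in 28 of 115 members and 40 of 267 reference cells, and the list summed to 162 against 141 CPM, in members that were deeper; their part in the results was not tested. The cells as a set thus carried the markers of microglia, and most markers of monocytes and lymphocytes were at or near 0. Some members also held Pf4, Ms4a7 or Stab1 of the border-associated macrophage list. The 4 markers of the interferon-responsive name, Ifit3, Rsad2, Usp18 and Isg15, are among the selecting genes and so are no check of it.

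For the contrast with the 267 cells, UMIs were summed over each set of cells, the 8 selecting genes were taken out, and levels were expressed as CPM of 693256 and 1304521 remaining UMIs. Of 6523 genes with at least 20 UMIs over both sets, 216 were at least 2-fold higher in interferon-high cells (3.31%) and 319 at least 2-fold lower (4.89%). The median log2 ratio of all measured genes was -0.09. These shares are the background for the lists below, and since the rule used this contrast nothing is read from the counts. With only genes of 50 or more UMIs, 101 were higher and 44 lower.

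Interferon-induced genes outside the rule were higher together. Of 64 such genes 56 were measured, 46 were at least 2-fold higher and none at least 2-fold lower, with a median log2 ratio of 2.40. Genes such as Oasl1, Ifi205 and Isg20 reached the minimum of 20 UMIs only through the members. Nothing is read from the counts of this list, here or below. The interval lay above 0 for 55 of the 56, Tdrd7 being the exception. Of the 20 genes ranked highest by the lower bound of their ratio, 12 were on this list and 16 on some list; the others were Pydc3, Pydc4, Ifit1bl1 and Phf11a. In cells thinned to 2000 UMIs, the list gave a median of 24 UMIs per member (quartiles 14 and 37.25, range 3 to 94), 10 in cells with 1 or 2 selecting UMIs and 8 in cells with 0 (range 0 to 39). The per-cell values of the 3 sets overlapped.

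**Figure D2:**
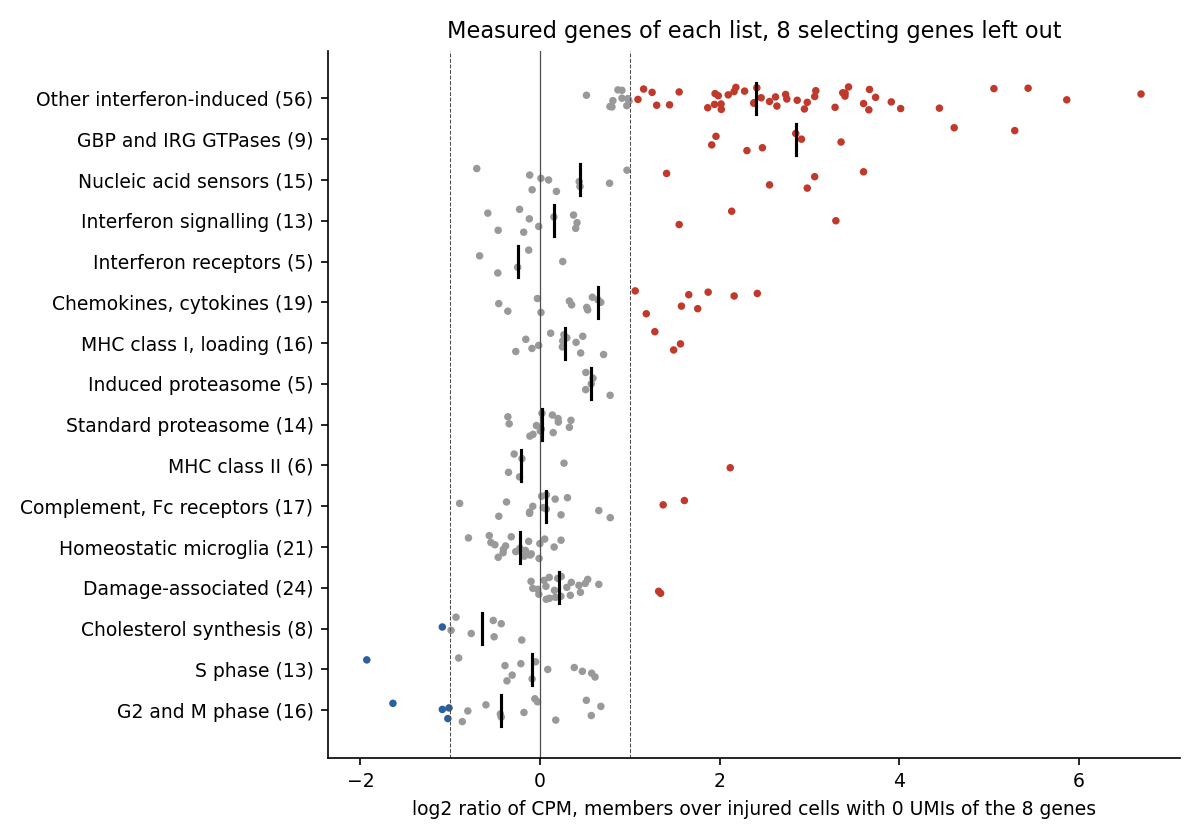
Each point is 1 measured gene, placed by its log2 ratio of CPM in interferon-high cells over injured cells with 0 UMIs of the 8 genes; rows are gene lists with the number measured, black bars are list medians, and red and blue points are at least 2-fold higher or lower. The 56 other interferon-induced genes and the 9 GTPases sit to the right of 0, while most homeostatic and standard proteasome genes lie near it.

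Among these genes, the PYHIN family, whose proteins sense DNA, gave the largest counts of near-exclusive transcripts. Mnda had 265 UMIs in 58 members (median 1, highest 24) against 15 UMIs, never more than 1 per cell, in the reference, that is 382 against 11.5 CPM and a log2 ratio of 5.06 (4.31 to 5.91). Ifi205 had 93 UMIs in 23 members against 3, a log2 ratio of 5.87 (4.27 to 8.17). Pyhin1 had 163 against 23 UMIs, 3.74 (3.10 to 4.44), and Ifi204 416 against 142, 2.46. Pydc3 and Pydc4, from the same cluster of genes, had 26 UMIs against 0 and 65 against 7. With the reference set to a floor of 3 counts, the ratio of Pydc3 was 16.3-fold, a value that depends on the floor. These genes are close copies of each other on chromosome 1, and how reads were divided among them is uncertain.

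Other members of the list come from several antiviral gene families. Oasl1 and Oasl2, relatives of the oligoadenylate synthetases, had 55 UMIs against 1 and 169 against 25, with log2 ratios of 6.69 (4.16 to 12.02) and 3.67 (3.06 to 4.34). Isg20, an exonuclease, had 58 UMIs against 5, a log2 ratio of 4.45. Mx1, of a family of dynamin-like GTPases, had 74 against 11, 3.66 (2.74 to 4.73). Slfn5, a Schlafen family member, had 43 against 5, 4.02, and Ifitm3, which stops viruses at the endosome, had 1128 against 341, 2.64, in 102 members.

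Rtp4, a chaperone of receptors that is strongly induced by interferon, was one of the most widely seen, with 240 UMIs in 77 members (median 2, highest 12) against 30 UMIs in 28 reference cells. Its level in members was 346 CPM and its log2 ratio 3.91 (3.36 to 4.51). At equal depth it was seen in 44.6% of members (35.2 to 54.3), 10.3% of cells with 1 or 2 selecting UMIs and 4.02% of cells with 0 (1.94 to 7.26). Phf11b, Phf11d and Phf11a, a PHD-finger family on chromosome 14, had log2 ratios of 3.29, 3.40 and 3.43; Phf11a turned to -0.19 when members with 3 to 5 selecting UMIs were used alone. Ifit1bl1, a relative of the selecting Ifit genes, had 27 UMIs against 2. The smallest ratios of the list belonged to genes that the reference cells also expressed, such as Ly6e (0.78) and Lgals9 (0.80), and Bst2 (tetherin) reached 1.15.

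Guanylate-binding and immunity-related GTPases coat and break up vacuoles that hold pathogens. Of 18 listed, 9 had enough UMIs to be measured. All 9 were at least 2-fold higher (median 2.85), against 3.31% of all measured genes. Some of them, such as Iigp1 and Ifi47, reached the minimum of 20 UMIs only through the members, so nothing is read from this count. Iigp1 had 83 UMIs in 21 members against 4, a log2 ratio of 5.29 (3.88 to 7.20), with 20 of them in 1 cell. Irgm1 had 114 against 21, 3.35 (2.67 to 4.10), and Ifi47 39 against 3, 4.61 (2.96 to 6.95). The guanylate-binding proteins ranged from Gbp3 at 1.91 to Gbp5 at 2.91.

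In the signalling chain 3 of 13 measured genes, all transcription factors, were at least 2-fold higher, Irf7 and Irf9 among them. Irf7, the factor that amplifies interferon production, had 339 UMIs in 76 members (median 1, highest 22) against 65, that is 489 against 49.8 CPM, and 83.1 CPM in cells with 1 or 2 selecting UMIs. Its log2 ratio was 3.29 (2.91 to 3.70), and at equal depth it was seen in 43.8% of members (34.4 to 53.4) against 7.23% (4.34 to 11.2). Irf9 had 56 UMIs against 36, a log2 ratio of 1.55 (0.92 to 2.20). The other 10 measured members of the list, among them Irf8 (0.37), Irf3 (-0.47) and Jak1 (-0.58), were within 2-fold, and the list's median was 0.15.

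Of the receptor genes 5 were measured and all were within 2-fold, with a median of -0.25. Ifnar1 had 19 UMIs against 30 (0.25, -0.66 to 1.13) and Ifnar2 113 against 232 (-0.13, -0.46 to 0.20), so both intervals held 0. Ifngr1, a chain of the interferon gamma receptor, had 145 against 378 (-0.47, -0.76 to -0.19), and Il10rb, shared by interferon lambda and interleukin receptors, 88 against 264 (-0.67).

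Interferon transcripts themselves were nearly absent. Of 18 ligand genes, Ifnb1 alone had any UMI. The injured library held 12, of which 6 were in 2 members, 5 of these in 1 cell, and 4 were in the reference cells; the uninjured library held 4. Interferon gamma and the interferon alphas were at 0 in both libraries. A 3′ library of this depth sees few transcripts of a gene per cell, and cells outside the sort were not sampled.

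Of 15 measured sensors of nucleic acid and their adaptors 5 were at least 2-fold higher. Zbp1, which senses Z-form nucleic acid, had 155 UMIs in 62 members against 24, a log2 ratio of 3.60 (2.98 to 4.29). The RNA helicases Ifih1 (MDA5), Dhx58 (LGP2) and Ddx58 (RIG-I) had log2 ratios of 3.06, 2.98 and 2.56, and Tlr3 1.41. The other 10 were within 2-fold: Mb21d1, the DNA sensor cGAS, was at 0.97, Tmem173, its partner STING, at -0.11, and Tlr7 at 0.09. Zbp1, Ifih1, Dhx58 and Ddx58 are counted in the other interferon-induced list too.

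Of 19 measured chemokines and cytokines 8 were at least 2-fold higher and none lower, with a median of 0.65. Ccl12, a ligand of the monocyte receptor Ccr2, had 1945 UMIs in 95 members (median 5, highest 219) against 684, that is 2806 against 524 CPM, a log2 ratio of 2.42 (2.29 to 2.55). Ccl5 had 704 UMIs against 296, 2.16, but in 34 members, with 24.7% of its UMIs in 1 cell, and was at 0.013 among cells with Xist UMIs alone. Cxcl10, which attracts T cells through Cxcr3, had 539 UMIs in 62 members against 277, 777 against 212 CPM, 1.87 (1.66 to 2.09). Ccl7 was at 1.76, with 38.2% of its UMIs in 1 cell, and at -1.86 among cells with Y-linked UMIs alone. Chemokines of activated microglia in general were closer to the reference, Ccl4 at 0.53 and Il1b at 0.01.

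Antigen presentation differed less. Of 16 measured class I genes Tap1, the peptide transporter, was at 1.56 (0.98 to 2.16), and the non-classical H2-T22 and H2-T23 were at 1.49 and 1.28; H2-T22 was at -0.050 when members with 3 to 5 selecting UMIs were used alone. The light chain B2m was seen in every member, at 9562 against 7775 CPM (0.30, 0.25 to 0.34), and H2-K1 and H2-D1 were at 0.40 and 0.25. The 5 induced proteasome subunits and activators lay between 0.51 and 0.78 (median 0.57), against a median of 0.02 for 14 standard subunits. Class II genes were not higher (H2-Ab1 -0.35, Cd74 -0.23), and Cd40, a costimulatory receptor, had 30 UMIs against 13, 2.12 (1.14 to 3.18), with 7 of them in 1 cell, and 1.00 without the 10 members richest in selecting UMIs.

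Among 17 measured complement genes and phagocytic receptors, Fcgr4 and Fcgr1, activating receptors for antibody, were the 2 that were at least 2-fold higher, at 1.61 (1.17 to 2.06) and 1.37 (1.16 to 1.59). For members with 3 to 5 selecting UMIs they were at 0.65 and 0.69. Fcgr1 was seen in 63.4% of members (53.8 to 72.3) at equal depth and in 39.0% of reference cells (32.9 to 45.3). C1qa, C1qb and C1qc were at 0.07, 0.02 and 0.04.

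Levels within the members were higher with a higher selecting sum for several genes, but not for P2ry12, as the plot of levels by range shows. Irf7 was at 49.8 CPM with 0 selecting UMIs, 83.1 with 1 or 2, 167 with 3 to 5, 344 with 6 to 20 and 1060 with 21 or more. Mnda went from 11.5 over 26.5, 59.2 and 181 to 1011 CPM over the same ranges. These genes were higher in every next range, as was the summed list of other interferon-induced genes, from 4505 to 24797 CPM.

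Ifi205, Iigp1, Ccl12 and Cxcl10 were near the reference in cells with 3 to 5 selecting UMIs, and highest in the top range. Ifi205 was at 0 CPM in the 53 cells with 3 to 5 selecting UMIs, 9.3 in the next range and 438 in the top range. Iigp1 gave 3.7, 37.1 (16.0 to 73.2) and 356 CPM in these ranges against 3.1 in the reference. Ccl12 gave 600, 1481 and 7050.5 CPM against 524 in the reference, and Cxcl10 270, 353 and 1878 against 212. The 29 cells of the top range held 1464 of the members' 1945 Ccl12 UMIs and 390 of their 539 Cxcl10 UMIs. Mnda was concentrated there too, with 16, 39 and 210 UMIs in the ranges 3 to 5, 6 to 20 and 21 or more. Without the 10 cells with most selecting UMIs, Ccl12 stayed at a log2 ratio of 2.17.

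**Figure D3:**
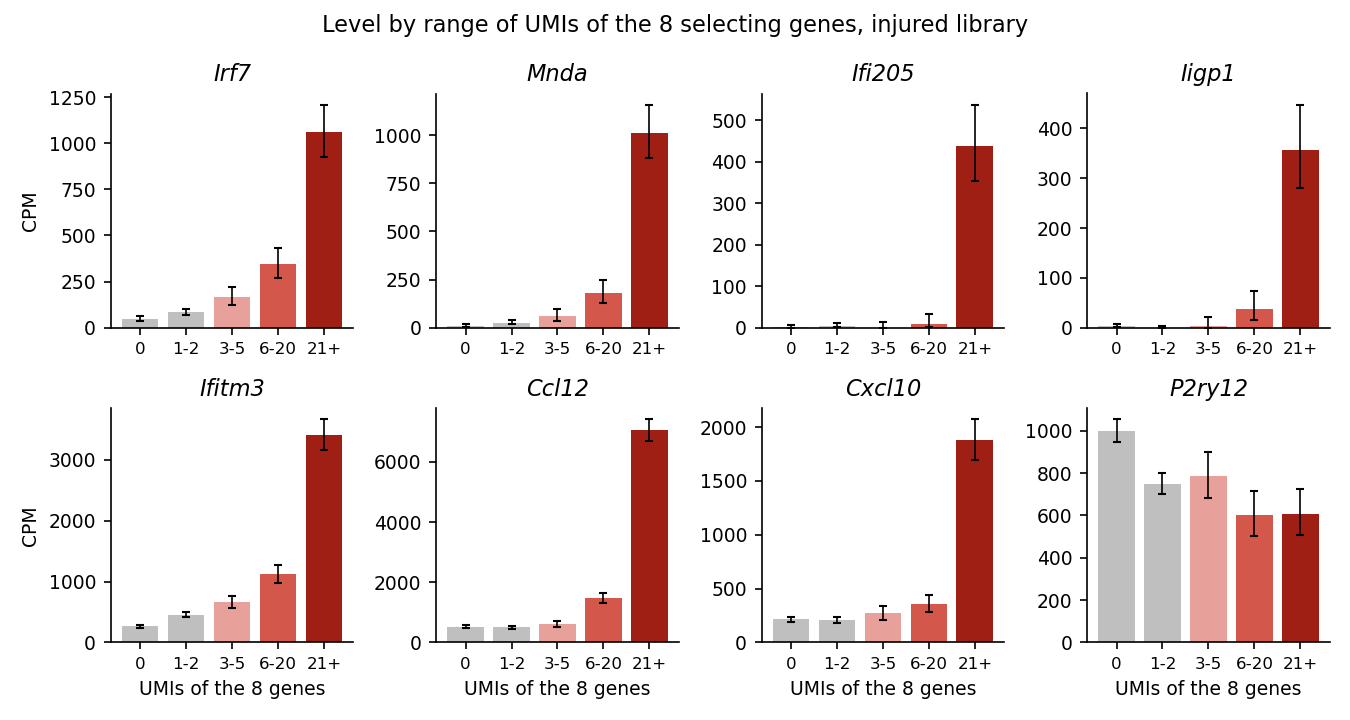
Bars give the CPM (selecting genes left out) of 8 genes in injured cells grouped by their UMIs of the 8 selecting genes (0, 267 cells; 1 or 2, 195; 3 to 5, 53; 6 to 20, 33; 21 or more, 29), with 95% counting intervals. Irf7 and Mnda are higher in each next range, Ifi205, Iigp1 and Cxcl10 are highest in the top range, and P2ry12 is between 603 and 999 CPM in all.

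Over the 115 members, the selecting UMIs per 1000 UMIs of a cell went with those of the other interferon-induced genes with a Spearman rho of 0.68. The points share 1 library, both measures share the cell's total, and genes of 1 pathway were compared. The rho of the selecting sum with depth was 0.38, with homeostatic genes -0.06 and with damage-associated genes -0.16.

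Genes of resting microglia were at slightly lower levels. Of 21 homeostatic genes none was 2-fold different, and the median log2 ratio was -0.22. P2ry12, the receptor by which microglia sense nucleotides, had 468 UMIs against 1303, 675 against 999 CPM (-0.57, -0.72 to -0.41). Tmem119 was at -0.41 (-0.58 to -0.24) and Cx3cr1 at -0.47 (-0.72 to -0.22), while Fcrls was at 0.16. In cells thinned to 2000 UMIs the list gave a median of 63 UMIs per member and 77 per reference cell, with the quartiles overlapping (45 to 98 and 50 to 130). Against the 85 reference cells of at least 5402 UMIs the direction turned, to a median of 0.30, and P2ry12 was at 0.46.

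Damage-associated genes behaved likewise in the opposite direction. The median of 24 measured genes was 0.21, and Ch25h, a cholesterol hydroxylase, and Gpnmb, a glycoprotein of lipid-laden phagocytes, were the 2 at least 2-fold higher (1.34 and 1.32). Ch25h was at 0.76 against the deep reference cells. Gpnmb was seen in 18 members; its level was 507 CPM in cells with 3 to 5 selecting UMIs, 32.5 and 86.7 in the higher ranges and 93.5 in the reference, and with members of at least 5 selecting UMIs its ratio was -0.80. Spp1, osteopontin, had a median of 16 UMIs per member (0 to 847) and 3 per reference cell (0 to 783), a log2 ratio of 0.50 (0.47 to 0.54). Among the member ranges its pooled level was highest with 3 to 5 selecting UMIs, at 20470 CPM, with 847 of 5531 UMIs in 1 cell. The median cell of that range held 4 UMIs of Spp1, against 24 and 51 in the higher ranges, whose cells were deeper. Apoe was at 0.11. Against the 85 deep reference cells, whose median of 7753 UMIs was above that of the members, the median of the list turned to -0.20 and Spp1 to -0.22. With every cell thinned to 2000 UMIs both lists kept their sign, at -0.26 for the homeostatic and 0.33 for the damage-associated genes. The list of other interferon-induced genes was at 2.70 against the deep cells and 2.37 after thinning.

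**Figure D4:**
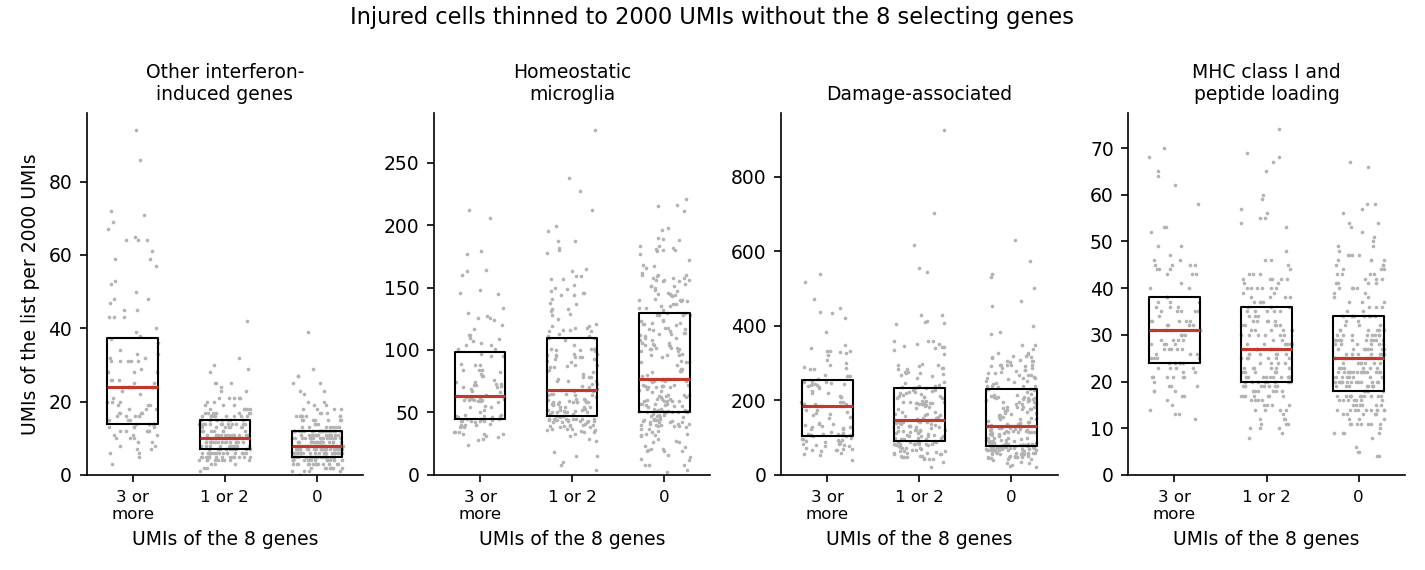
Each grey point is 1 injured cell thinned to 2000 UMIs after the 8 selecting genes were taken out, placed by its UMIs of a gene list, for 112 interferon-high cells, 185 cells with 1 or 2 selecting UMIs and 249 with 0; boxes are quartiles and red lines medians. Medians of the other interferon-induced list were 24, 10 and 8, those of the homeostatic list 63, 68 and 77, and those of the damage-associated list 184.5, 148 and 130, with boxes of the last 2 lists overlapping.

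Genes of cell division were sparse. Of 16 G2 and M phase genes 4 were at least 2-fold lower, with a median of -0.44, and Top2a had 7 UMIs in 4 members against 41 in 16 reference cells (-1.64, -3.04 to -0.47). Mki67 had 4 UMIs against 16, an interval that held 0, and its ratio was 0.42 after thinning. In S phase Rrm2 had 6 UMIs against 43 (-1.93). Of 8 cholesterol synthesis genes Fdps was at least 2-fold lower (11 UMIs against 44, -1.09), with a list median of -0.64; with Y-linked cells alone Fdps was at 0.0037.

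The genes ranked lowest came from few reference barcodes. Ptn had 1 UMI in members and 60 in the reference (-4.99, -10.32 to -2.46), Fabp4 0 and 70, all in 3 cells, Fabp7 0 and 33, in 6 cells, and Enpp2 1 and 27, in 6 cells. Pllp, Gpm6a, Gpm6b, Scrg1, S100a16 and Cryab completed the 10. Several of these are known from glia and vessels, such as Fabp7 (radial glia and precursors) and Fabp4 (endothelium). The list of endothelial markers was not lower in members, at 30.2 CPM against 24.5 CPM in reference cells. Of this list, Flt1 was seen in 12 members and 9 reference cells. No member, but 5 reference cells and 2 cells with 1 or 2 selecting UMIs, held 10 or more UMIs of endothelial or oligodendrocyte precursor markers, Fabp7, Ptn or Gpm6a, a list extended after these values were seen. Without those 7 barcodes Ptn was at -2.28 and Enpp2 at -0.11. At a median depth of 3262 UMIs those barcodes held 3 selecting UMIs, 104 CPM against 106 CPM in all injured non-members. Members had 0.341% of their UMIs in the 8 genes. Non-members hold at most 2 selecting UMIs by the rule, so these levels were bounded in advance and nothing is read from them. The share of the selecting UMIs that comes from free RNA was not tested.

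Sex-linked transcripts show that the injured library held cells of both sexes. The uninjured one had 235 cells with Y-linked UMIs alone, of which 7 met the rule, and 6 with Xist UMIs alone. The part of sex in the difference between the libraries was not tested. Of 213 injured cells with Xist UMIs and no Y-linked UMI, 58 were interferon-high (27.2%, 21.4 to 33.7), and of 147 with Y-linked UMIs alone, 27 were (18.4%, 12.5 to 25.6). The 2 intervals overlapped, and sex cannot be told apart from animal here. In the top range 19 cells had Xist alone and 4 Y-linked UMIs alone. Within each class the interferon-induced genes outside the rule were higher: 41 of 47 measured genes at least 2-fold in Xist cells (median 2.47), where 4.63% of all 4060 measured genes were, and 20 of 29 in Y-linked cells (median 1.70), where 3.2% of 3001 were.

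The uninjured library offers the same measure in a sample that the choice of the 115 cells did not use, though the rule was the same. Its 17 cells that met the rule were set against 582 with 0 selecting UMIs, and 8.83% of 6525 measured genes were at least 2-fold higher, the 17 cells having 68859 UMIs in all. Of 36 other interferon-induced genes measured, 16 were at least 2-fold higher and none lower, with a median of 0.90. Of the 20 genes ranked highest in the injured library 6 could be measured, and 5 of them were at least 2-fold higher. Irf7 (15 against 10 UMIs) and Pyhin1 (7 against 18) passed the minimum of 20 UMIs only through the 17 cells. Nothing is read from these counts.

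Irf7 had 15 UMIs in the 17 uninjured cells against 10 in the 582, a log2 ratio of 5.21 (3.96 to 6.53), and Rtp4 12 against 29, 3.35 (2.25 to 4.37). Pyhin1 was at 3.26, Phf11b at 2.58, Irgm1 at 1.86 and Phf11d at 0.72. Cxcl10 was at 1.98, with 15 of its 24 UMIs in 1 cell, and Ccl12 at 1.71, with 102 UMIs in 14 cells. Mnda had 3 UMIs, all in 1 of the 17 cells, and 3 in the 582, a log2 ratio of 4.63 (1.73 to 7.53). Other genes highest in the injured top range were rare: Ifi205 had 0 UMIs in both uninjured sets, and Iigp1 and Ifi47 had 0 in the 17 cells. At 68859 UMIs, 3 counts correspond to 43.6 CPM. Injured members had Ifi205 at 134 CPM, but those with 3 to 5 and 6 to 20 selecting UMIs, the sums found in the uninjured cells, were at 0 and 9.3 CPM, so a level like theirs was not detectable in the 17 cells. In cells thinned to 2000 UMIs the other interferon-induced list gave a median of 11 UMIs (4 to 29) in the 17 cells and 5 (0 to 20) in cells with 0, against 24 and 8 in the injured library. The difference between the libraries was not tested.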

How the data were processed

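Single-cell 3′ libraries (10x Genomics v2) from 1 injured and 1 uninjured sample were analysed. The authors deposited gene-by-cell matrices of UMI counts; the tools named for making them are STAR, Cell Ranger 2.0.1 and Seurat 2.1.0, and the builds GRCm38.p5 and mm10, per the submitters' processing notes. The matrices held 580 and 705 barcodes; kept cells had at least 200 genes and at most 10% mt- UMIs. Counts were summed over sets of cells, the 8 selecting genes removed, and CPM ratios given with exact binomial intervals (95%); a gene at 0 was set to a floor of 3 counts. A gene was measured with 20 or more UMIs over both sets. Cells were thinned without replacement (seed 1). With 1 library per group there was no test. The members and the 22 gene lists were chosen with earlier results of these data known. Genes named were the 20 highest and 10 lowest by the interval bound nearest 0, up to 4 per list by size of ratio, 21 fixed genes and the selecting genes; other list genes given as examples were chosen after their values were seen. No barcode annotation by cell type was used. Ratios were tested on simulated data. Alternatives were other thresholds, depths, cells, scalings (edgeR 4.0.16 TMM) and UMI minimums. Python 3.11.15, numpy 2.4.6, scipy 1.17.1, pandas 2.3.3, matplotlib 3.10.9 and R 4.3.3 were used. Some genes of the lists are counted in list totals and not reported here by name.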

Additional observations from a re-analysis of the deposited data

Results flagged for a closer look

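Grn, which encodes the lysosomal growth factor progranulin, had intervals on opposite sides of 0 in the 2 libraries. In injured cells it was slightly higher in the 115 interferon-high cells than in cells with 0 selecting UMIs, with a log2 ratio of 0.28 (0.20 to 0.37). In the uninjured library it was lower in the 17 cells that met the rule, with a log2 ratio of -0.37 (-0.73 to -0.04; 73 UMIs against 2333). The difference between the libraries was not tested.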

How the results depend on the processing

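No paired analysis was possible because each group was 1 library. The number of interferon-high cells was 174 with a threshold of 2 UMIs, 72 with 5 and 68 after thinning to 2000 UMIs. Genes at least 2-fold higher numbered 126 after thinning to 2000 UMIs, 96 among cells with Y-linked UMIs alone, 101 with at least 50 UMIs and 743 with no minimum. Genes at least 2-fold lower numbered 163 against deep reference cells, 170 among cells with Xist UMIs alone, 44 with at least 50 UMIs, 1103 with no minimum and 560 for members with 3 to 5 selecting UMIs. The other interferon-induced list had a median of 1.70 among Y-linked cells and 1.28 for members with 3 to 5 UMIs, and 2.14 to 2.70 elsewhere. Against deep reference cells the homeostatic median was 0.30 and the damage-associated one -0.20. Of 57 named genes with at least a 2-fold ratio 7 turned in some alternative: Phf11a (-0.19) and H2-T22 (-0.050) for members with 3 to 5 UMIs, Ccl7 (-1.86) and Fdps (0.0037) among Y-linked cells, Gpnmb (-0.80) for members with 5 or more, and Mki67 (0.42) and Tpx2 (0.15) after thinning to 2000 UMIs. Fewer cells or genes entered each of these; beyond that the cause was not tested. Of 54 named genes under 2-fold, 33 changed sign in at least 1 alternative. Of the 20 highest genes 15 stayed at least 2-fold higher in all 12 alternatives, and Pydc3 in the 11 that gave it a value; Ifi205, Iigp1, Ifi47 and Phf11a did not. Leaving out barcodes of other cell types, members with 3 to 5 UMIs and a rule without Isg15 were alternatives added after the data were seen. TMM factors shifted all ratios by 0.08. Depth limits genes under about 20 UMIs.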
